A study of Mus musculus with 7 samples.

Results

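Gamma delta T cells of the mouse liver were picked out of single-cell RNA libraries by their receptor transcripts. A barcode was taken as a gated cell if it held at least 2 unique molecular identifiers (UMIs, 1 per captured transcript) from Cd3d, Cd3e and Cd3g together, at least 1 of Trdc and at least 1 of Trgc1, Trgc2 and Trgc4 together, and none of Cd8b1, Zbtb16 or Foxp3. A barcode was kept with 500 or more UMIs, 200 or more genes and less than 20% of UMIs from mitochondrial genes. The cells were thus chosen by their own receptor counts, which are given as a description. The gate held 1167 of 62304 kept barcodes, and 12343 other kept barcodes passed the same Cd3 limit and are called the other CD3+ cells. All mice had received plasmids for Nras and C-myc by hydrodynamic tail vein injection, which drives fluid and DNA from the tail vein into hepatocytes, and the liver was taken 2 weeks later. The 3 control samples received nothing more, and the 4 treated samples also received a plasmid expressing IL-2/CD25. The tissue of every sample is labelled HCC, hepatocellular carcinoma, and the mice's strain, sex and age are not named in the labels. The labels do not say that each sample is a separate mouse, so the p-values measure only the spread between samples.

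Gamma delta T cells carry a T cell receptor made of a gamma and a delta chain in place of the alpha and beta chains of most T cells, and many of them act early and without a peptide shown on a classical major histocompatibility molecule. In mice they divide broadly into an interferon gamma type, which uses the transcription factors Tbx21 and Eomes, carries Cd27, Il2rb and receptors also found on natural killer (NK) cells, and can kill target cells, and an interleukin 17 type, which carries Il23r and Ccr6. The liver holds both types next to NK cells, type 1 innate lymphoid cells and other lymphocytes that carry the same NK receptors. The receptor for interleukin 2 joins Il2rb and Il2rg, and Il2ra (CD25) raises its affinity.

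The gate rests on the constant parts of the receptor chains, so the 3 gamma constant genes are shown first, to make plain how far a short read can tell them apart. The last coding exon of each, 140 bases 5′ to 3′ on the strand of the gene, was read from mouse genome GRCm38 with the GENCODE M21 annotation and matched by Ensembl gene identifier. The capitals mark the 45 positions at which the 3 sequences are not all alike.
Trgc1: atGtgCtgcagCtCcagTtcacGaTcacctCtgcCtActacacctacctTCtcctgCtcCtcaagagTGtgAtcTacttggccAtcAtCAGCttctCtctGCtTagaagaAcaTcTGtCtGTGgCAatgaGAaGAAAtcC
Trgc2: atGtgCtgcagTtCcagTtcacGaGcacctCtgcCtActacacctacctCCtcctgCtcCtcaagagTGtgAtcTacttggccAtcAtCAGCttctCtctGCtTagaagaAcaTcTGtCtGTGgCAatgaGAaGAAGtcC
Trgc4: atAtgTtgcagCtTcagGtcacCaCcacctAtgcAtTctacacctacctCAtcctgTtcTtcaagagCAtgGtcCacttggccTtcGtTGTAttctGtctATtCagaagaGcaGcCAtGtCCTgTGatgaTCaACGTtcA
These exons lie at chr13:19216476-19216615 on the plus strand for Trgc1, chr13:19305063-19305202 on the minus strand for Trgc2 and chr13:19352201-19352340 on the plus strand for Trgc4. Trgc1 and Trgc2 differ at 4 of the 140 positions, whereas Trgc4 differs from each of them at 44. The first exon of the constant region gave the same order over 330 bases, with 9 mismatches between Trgc1 and Trgc2, 59 between Trgc1 and Trgc4 and 61 between Trgc2 and Trgc4. The split of UMIs between Trgc1 and Trgc2 is therefore uncertain, and their sum with Trgc4 is what the gate used. Trdc, the delta constant gene, lies at chr14:54142851-54148868 on the plus strand, upstream of the alpha constant gene Trac at chr14:54220521-54224206 in the same locus.

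Controls held 76438139 to 181755269 UMIs per sample and treated samples 37653600 to 47881379. The median gated cell had 3833 to 6582 UMIs among controls and 3566 to 4599 among treated samples, and the sums of all their UMIs were 55966 to 128962 and 967189 to 1715622. Pairs of libraries shared 14 to 37 barcodes, and no barcode was gated in both libraries of a pair. Of the gated barcodes of treated 1, 2 were also found among the barcodes of treated 3. Of the gated cells, 84.6 to 100% among controls and 24.7 to 57.5% among treated samples also held at least 2 UMIs from the marker lists of other cell types. The neutrophil markers summed to 804 to 2874 CPM (counts scaled to a common total per sample) in gated cells of the controls against 97.3 to 529.8 in the treated samples, and those of monocytes and macrophages to 161 to 1144 against 25.8 to 186. The tumour cell markers, with Afp at 0 in every control, summed to 101 to 554 CPM against 1.17 to 14.5. The share of free RNA was estimated at 12.7 to 22.4% of the UMIs. Subtracting it was tried for the comparison between the groups and left 419 genes called in place of 862, and its part in the other comparisons was not tested.

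Receptor and lineage transcripts came first, as a check of the name. By the choice of the cells, Trdc stood at 512, 732 and 804 CPM in the 3 controls and at 915, 1082, 1011 and 933 CPM in the 4 treated samples, against means of 3.30 ± 1.86 (SD, n = 3) and 37.8 ± 4.98 (SD, n = 4) in the other CD3+ cells. Trgc4, also part of the gate, averaged 165 ± 4.92 CPM (SD, n = 3) in gated control cells and 289.9 ± 30.6 (SD, n = 4) in gated treated cells. Cd3g, which carries receptor signals into the cell, averaged 364 ± 51.4 and 656 ± 43.9 CPM. These values describe the gate and carry no test. At its edges, 189 gated cells held exactly 1 Trdc UMI, 318 exactly 1 gamma constant UMI and 43 exactly 2 Cd3 UMIs, while 1844 barcodes met every other condition with Trdc at 0 and 404 with the gamma genes at 0. Of the barcodes that met the Cd3, Trdc and gamma constant conditions, 140 were kept out for Zbtb16, 60 for Cd8b1 and 16 for Foxp3. A barcode can be in more than 1 of these counts.

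Trac, the constant gene of the alpha chain, was not used by the gate and was low in it. Its level was 38.8, 54.9 and 35.7 CPM in gated control cells and 69.4, 68.4, 70.3 and 68.2 CPM in gated treated cells, against 232, 245 and 165 CPM and 436, 484, 456 and 449.9 CPM in the other CD3+ cells. Every gated value lay below every value of the other CD3+ cells. The log2 difference was -2.73 (SE 0.133, adjusted p = 1.21e-09, edgeR's quasi-likelihood test with Benjamini-Hochberg adjustment, the test behind every adjusted p of a gene here). A Trac UMI was still seen in 18.4% ± 11.6 (SD, n = 3) of gated control cells and 19.7% ± 2.26 (SD, n = 4) of gated treated cells, above the 1.05% and 3.62% of B cells, whose median depth was 1938 to 2566.5 and 2535 to 3076 UMIs.

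The beta constant gene Trbc2 showed no such gap. It stood at 543, 586 and 643 CPM in gated control cells and at 738, 771, 736 and 746 CPM in gated treated cells, with means of 557 and 977 CPM in the other CD3+ cells. Its log2 difference of -0.34 (SE 0.101, adjusted p = 0.0457) lost the call without control 2 (-0.35) and without each treated sample in turn (-0.34 to -0.30). A Trbc2 UMI was seen in 78.3% and 84.6% of gated control and treated cells, against 84.1% and 88.9% of the other CD3+ cells. Trbc1, the other beta constant gene, was not called against the other CD3+ cells. Between the groups it was called higher in gated treated cells. Barcodes with Ncr1 (NKp46, an activating receptor of NK cells) and no Cd3 UMI held Trbc2 too, at means of 73.9 and 203 CPM, and 11.0 to 21.6% of them among controls and 14.1 to 15.8% among treated samples held a Trdc UMI. Trdc together with a gamma constant UMI was found in at most 1.10% of them. A Trdc UMI alone therefore did not set gamma delta T cells apart in these libraries. The coreceptor Cd4 had a UMI in 0 of 44 gated control cells and in 15 of 1123 gated treated cells, and its log2 difference from the other CD3+ cells was -3.58 (SE 0.222, adjusted p = 8.51e-09). Cd8a, the alpha chain of CD8, was lower by a log2 difference of -2.61 (SE 0.183, adjusted p = 4.20e-08), although the absence of Cd8b1 in the gate bears on it.

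**Figure D1:**
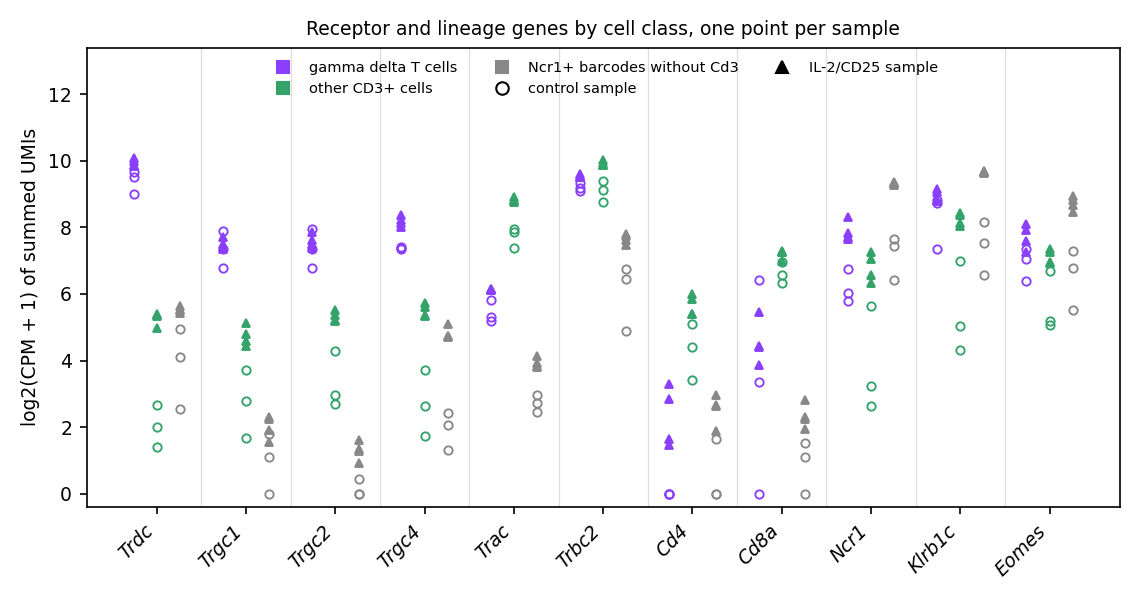
Level of receptor and lineage genes as log2(CPM + 1), 1 point per sample (circles control, triangles IL-2/CD25), in gated gamma delta T cells, in the other CD3+ cells and in Ncr1+ barcodes without Cd3. Trac of the gated cells lies between the other classes, at 43.1 CPM in controls and 69.1 CPM in treated samples on average, while Trbc2 overlaps the range of the other CD3+ cells.

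Variable segments bear on which receptor a cell used, as far as a 3′ library reads them. Trgc4 was held together with Trgc1 or Trgc2 by 530 of 1167 gated cells, so a UMI of a gamma segment does not fix the receptor. Trgv2 was the gamma segment seen most often, with a UMI in 23 of 44 gated control cells and 374 of 1123 gated treated cells. It was also seen in 7.36% and 8.49% of the other CD3+ cells of controls and treated samples on average. Its level in gated cells was 147, 146 and 179 CPM in controls and 126, 112, 90 and 86.8 CPM in treated samples. Trgv1 was seen in 9 and 123 cells and Trgv4 in 8 and 97 cells, Trgv6 in 2 and 9 cells, and Trgv5 and Trgv7 in 0 control cells and 1 treated cell each. Trgc2 was found in 283 of 397 cells with Trgv2 and in 349 of 770 without it, and Trgc4 in 104 of 132 cells with Trgv1 and in 703 of 1035 without it. These counts and levels are descriptions with no test. Among delta segments, Trdv4 was seen in 74 gated treated cells, but its level of 22 CPM there lay below the 43.5 CPM of Ncr1+ barcodes without Cd3.

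Il17a, the cytokine gene of the interleukin 17 type, gave 29 UMIs in 7 cells, 18 of them in 2 control cells, so that its level of 0, 91.5 and 143 CPM among controls and 0 to 8.27 CPM among treated samples rests on a handful of cells.

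Gated gamma delta T cells formed a larger share of the treated livers' barcodes. They numbered 18, 13 and 13 in the controls and 275, 269, 235 and 344 in the treated samples. Of kept barcodes they were 0.189% (95% exact binomial interval 0.112 to 0.299%), 0.179% (0.0953 to 0.306%) and 0.150% (0.0799 to 0.257%) in controls, and 3.80% (3.37 to 4.26%), 3.06% (2.71 to 3.44%), 2.25% (1.98 to 2.55%) and 3.31% (2.98 to 3.67%) in treated samples. The lowest treated share lay far above the highest control share, and the means of 0.173% ± 0.0202 (SD, n = 3) and 3.10% ± 0.646 (SD, n = 4) differed by 2.93 percentage points (exact two-sided permutation test over 35 splits, p = 0.0286, adjusted over both shares 0.0286, the smallest this design allows). CD3+ barcodes as a whole numbered 201 to 489 per control and 2591 to 3965 per treated sample.

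Within CD3+ barcodes the difference was smaller. The gated cells were 3.68%, 6.47% and 3.19% of CD3+ barcodes in controls and 10.4%, 10.4%, 7.31% and 8.68% in treated samples. Control 2 came closest to the treated samples, and the groups did not overlap. The means were 4.44% ± 1.77 (SD, n = 3) and 9.19% ± 1.49 (SD, n = 4), a ratio of 2.07 (exact two-sided permutation test, p = 0.0286, adjusted 0.0286). With cells that held an Ncr1 UMI left out, the differences were 1.66 points of kept barcodes (adjusted exact p = 0.0571) and 1.58 points of CD3+ barcodes (adjusted exact p = 0.257). With at least 2 Trdc UMIs and no Trac, Trbc1 or Trbc2 UMI required, which left 1, 1 and 2 control cells and 17, 18, 9 and 16 treated cells, they were 0.154 points (adjusted exact p = 0.114) and 0.108 points (adjusted exact p = 0.514). Without called doublets the CD3+ difference was 4.22 points (adjusted exact p = 0.0571), and without cells holding markers of other cell types, where the controls kept 1, 0 and 2 gated cells, it turned to -1.21 points (adjusted exact p = 0.83). Shares of barcodes cannot tell more gamma delta T cells from fewer other cells, and the labels do not say whether immune cells were enriched.

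**Figure D2:**
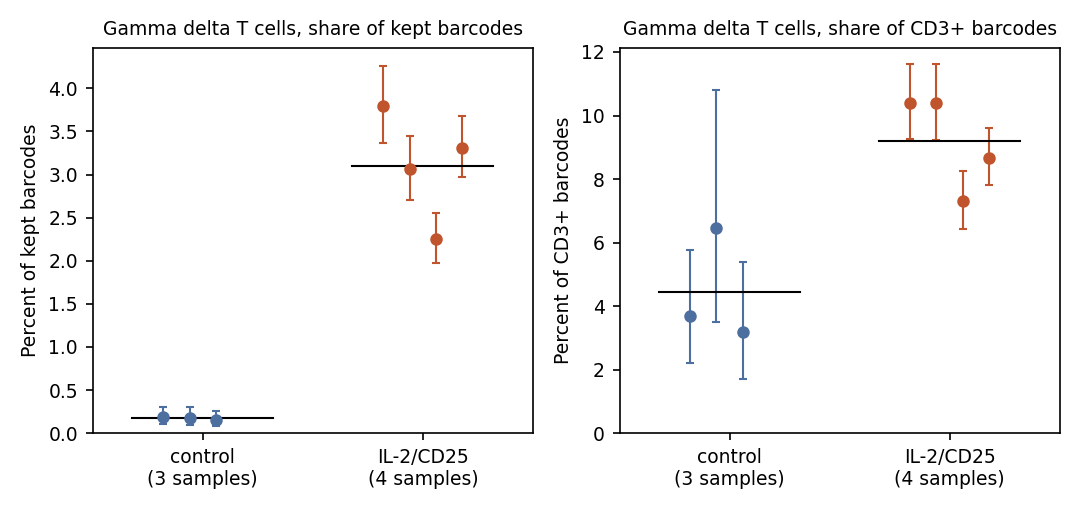
Gated gamma delta T cells as a percentage of kept barcodes (left) and of CD3+ barcodes (right), 1 point per sample with its 95% exact binomial interval, and a line at each group mean. Controls sit at 0.150 to 0.189% and treated samples at 2.25 to 3.80% of kept barcodes, and at 3.19 to 6.47% and 7.31 to 10.4% of CD3+ barcodes.

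Many gated cells carried NK receptors. Ncr1 had a UMI in 16.7%, 7.69% and 23.1% of gated control cells and in 43.6%, 32.7%, 34.9% and 53.5% of gated treated cells. The control shares rest on 3, 1 and 3 cells, and B cells gave 0% in both groups. Klrb1c (NK1.1) had a UMI in 57.7% ± 16.8 (SD, n = 3) and 76.0% ± 7.54 (SD, n = 4), with 1.95% and 5.51% of B cells as background. With every cell thinned to 2000 UMIs, the means fell to 9.05% and 26.1% for Ncr1 and to 38.5% and 56.3% for Klrb1c. No UMI of Ncr1, Klrb1c or Eomes was seen in 15 of 44 gated control cells and 163 of 1123 gated treated cells.

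Among treated gated cells, those with and without Ncr1 differed in more than that gene. The 649 cells without an Ncr1 UMI averaged 1189 CPM of Trdc (1091 to 1254 over the 4 samples) and the 474 with one 782 CPM (718 to 908). Trdc was part of the gate, so its levels are a description. Cells with Ncr1 were also deeper in each treated sample, with medians of 3967.5 to 5474 UMIs against 3424 to 4219 without it. Il7r is the interleukin 7 receptor that keeps resting T cells alive. Without Ncr1 it was at 576 CPM (509 to 657), and with Ncr1 at 200.1 CPM (149 to 254). The T cell transcription factor Tcf7 was at 418 CPM (375 to 443) without Ncr1 and 269 CPM (233 to 314) with it. Cd5, a brake on receptor signals, was at 61.0 CPM (45.1 to 69.4) without Ncr1 and 15.4 CPM (6.94 to 27.2) with it. None of these CPM ranges overlapped.

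Gzma, Tyrobp, Klra8 and Klra4 were higher with Ncr1, genes picked after their values were seen. The granzyme gene Gzma, a protease of killing granules, was at 1003 CPM (455 to 1432) without Ncr1 and at 4280.4 CPM (2528 to 6129) with it, and Tyrobp, the DAP12 adaptor of activating NK receptors, at 542 CPM (429.8 to 736) and 1776 CPM (1531 to 2149). The Ly49 receptor genes Klra8 and Klra4, whose close copies make their own counts uncertain, were at 25.1 CPM (19.6 to 30.6) and 21.4 CPM (5.91 to 35.5) without Ncr1 against 206 CPM (162 to 261) and 191 CPM (129 to 259) with it. In Ncr1+ barcodes without Cd3 of the treated samples Klra8 and Klra4 averaged 632 and 641 CPM. Ifng was alike on both sides, at 154 CPM (67.7 to 186) and 166 CPM (157 to 175), and Eomes stood at 192 and 234 CPM. Split by Trdc instead, cells with 1, 2 to 4 and at least 5 Trdc UMIs held 238, 141 and 18.6 CPM of Klra4, highest in the cells at the edge of the gate. Whether barcodes that joined an NK cell with T cell RNA add to this was not tested. Doublets were called for 0 to 7.69% of gated control cells and 9.29 to 14.5% of gated treated cells.

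**Figure D3:**
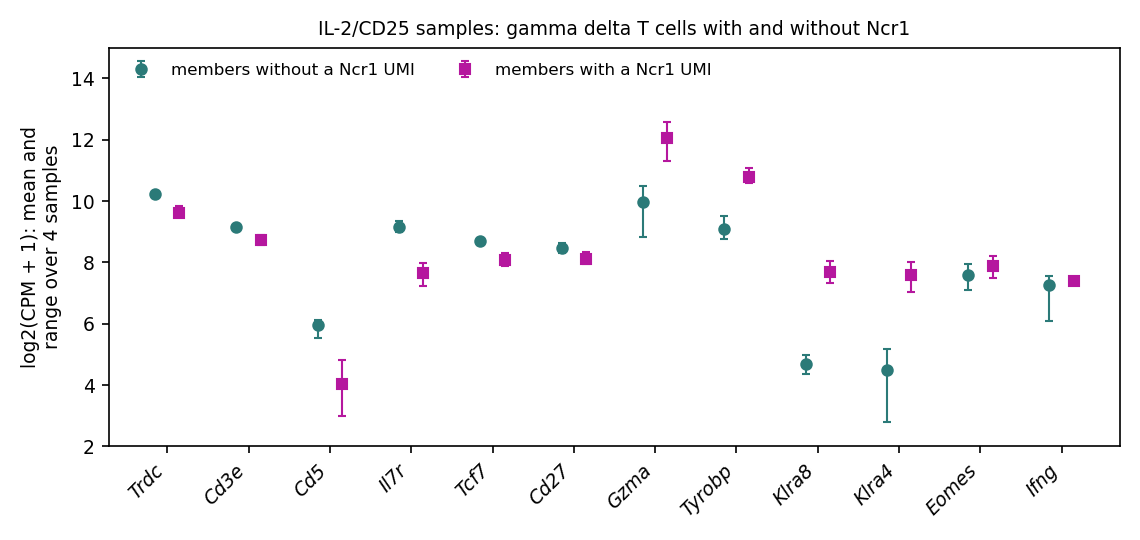
Mean level as log2(CPM + 1) of picked genes in gated cells of the 4 treated samples, with no Ncr1 UMI and with at least 1, where the bars span the range over samples. Trdc and Cd3e, both part of the gate, are higher without Ncr1, as are Cd5, Il7r and Tcf7. Gzma, Tyrobp, Klra8 and Klra4 are higher with it, and Ifng and Eomes overlap.

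Compared with the other CD3+ cells of the same samples, the gated gamma delta T cells were higher in most listed NK receptor genes and in most listed genes of the interferon gamma type, and lower in Trac, Cd4, Cd5, Areg, Il10 and Tnfrsf4. Out of 12106 genes in the test, 8.52% passed at an adjusted p under 0.05, with 288 higher in gated cells (2.38%) and 743 lower (6.14%), and the median log2 difference of all genes was -0.04. Of 23 NK receptor genes, 15 were higher and 1, Klrg1, was lower, with a median of 0.87. Of 16 genes of the interferon gamma type, 12 were higher and none lower, with a median of 0.59. Of 15 cytotoxic genes, 6 were higher and none lower, with a median of 0.27.

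Cd7, an immunoglobulin family protein of T and NK cells, was at 233, 649.9 and 411 CPM in gated control cells and 882, 758, 718 and 934 CPM in gated treated cells, against 43.9, 96.4 and 48.1 CPM and 407, 312, 259 and 427 CPM in the other CD3+ cells. It was higher in the gated cells of all 7 samples, by 1.62 on the log2 scale (SE 0.185, adjusted p = 1.45e-05). Cd160, a receptor of cytotoxic and innate-like lymphocytes, was at 178, 229 and 268 CPM and at 348, 336, 287 and 367 CPM, against 67.1, 65.7 and 50.2 CPM and 157, 137, 116 and 157 CPM. No sample overlapped within its group, and the log2 difference was 1.30 (SE 0.120, adjusted p = 1.21e-06).

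Other receptors followed. Klrc1 (NKG2A, inhibitory) and Klrc2 (NKG2C, activating) were higher by 1.46 (adjusted p = 4.20e-05) and 1.41 (adjusted p = 1.39e-04). Their partner Klrd1 (CD94) was higher by 1.03 (adjusted p = 9.71e-04), Klre1 by 1.34 (adjusted p = 7.85e-04) and Klrb1c by 1.19 (adjusted p = 0.00716). Cd244a (2B4), a receptor of the SLAM family, was higher by 1.13 (adjusted p = 3.37e-08). Lilr4b, a receptor of the leukocyte immunoglobulin-like family, averaged 200 and 212 CPM against 100 and 84.8 CPM in controls and treated samples and was higher by 1.17 (adjusted p = 5.66e-06). Ahr, a ligand-sensing transcription factor of tissue lymphocytes, averaged 77.3 and 73.1 CPM against 29.9 and 33.2 CPM and was higher by 1.10 (adjusted p = 1.15e-06). Ncr1 was higher by 1.09 (adjusted p = 2.22e-04) and the adaptor Tyrobp by 0.73 (adjusted p = 1.48e-04).

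The genes of the interferon gamma type that rose included the cytokine itself. Ifng was at 15.5, 36.6 and 161 CPM and at 177, 175, 178 and 125 CPM in gated cells, against 27, 46.1 and 22.1 CPM and 120.1, 99.3, 125 and 101 CPM in the other CD3+ cells. It was lower in 2 of the 3 controls and higher in all 4 treated samples, with a log2 difference of 0.52 (SE 0.116, adjusted p = 0.00774). The transcription factors Eomes and Tbx21 were higher by 0.63 (adjusted p = 0.0136) and 0.34 (adjusted p = 0.0243), and Il2rb by 0.61 (adjusted p = 0.0129). Fasl and Tnfsf10 (TRAIL), ligands that trigger death receptors, were higher by 0.60 (adjusted p = 6.65e-04) and 0.85 (adjusted p = 1.16e-04), and the chemokine Xcl1 by 1.05 (adjusted p = 0.00739). The calls of Ifng (0.44 to 0.59) and Tbx21 (0.34 to 0.41) were lost without each treated sample in turn, and that of Eomes without treated 1 (0.61), treated 3 (0.66) or treated 4 (0.65).

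Of 12 cytokine genes 4 were lower (Areg, Il10, Il4 and Csf1) and 2 higher (Ifng and Il2, the growth factor of activated T cells), and of 16 checkpoint genes 4 were higher and 2 lower. The calls of Il2 (1.06 to 1.13) without each treated sample in turn, and of Csf1 without treated 1 (-0.96), treated 3 (-1.23) or treated 4 (-0.80), were lost. Whether Il2 UMIs of treated samples come from the IL-2/CD25 plasmid was not tested. Areg, an epidermal growth factor family ligand, was at 7.75, 0 and 0 CPM and at 0.716, 0.796, 2.07 and 0 CPM in gated cells, against means of 244 and 32.8 CPM in the other CD3+ cells, with a log2 difference of -5.60 (SE 0.288, adjusted p = 1.21e-09). Tnfrsf4 (OX40), a costimulatory receptor, averaged 3.05 and 6.01 CPM against 39.7 and 111 CPM, a log2 difference of -4.14 (SE 0.216, adjusted p = 1.21e-09). The cytokine genes Il10 and Il4 were lower by log2 differences of -4.83 (adjusted p = 3.37e-08) and -2.14 (adjusted p = 1.18e-04), the checkpoint gene Ctla4 by -2.80 (adjusted p = 1.97e-07) and the costimulator Icos by -1.70 (adjusted p = 4.39e-06). The gate excluded Foxp3, so barcodes with Foxp3 stayed among the other CD3+ cells. Further below were Tm4sf1, Il6ra, the interleukin 6 receptor, Crip2, Cd81, Capg and the histone genes H2ac8 and H1f5, at log2 differences of -3.16 to -1.53.

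Cd5, Cd6 and Themis, which tune signals of the T cell receptor, were lower. Cd5 was at 31, 45.8 and 35.7 CPM and at 37.2, 46.1, 46.5 and 28.6 CPM in gated cells, against 76.5, 64.6 and 47.1 CPM and 142, 147, 153 and 132 CPM, and it was lower in every sample, with a log2 difference of -1.87 (SE 0.116, adjusted p = 8.51e-09). Its relative Cd6 was lower by -1.69 (adjusted p = 5.18e-07) and Themis, which acts in thymic selection, by -1.51 (adjusted p = 1.97e-07). Of 12 receptor signalling genes 5 were lower, none was higher and 7 did not pass, with a median of -0.06. Of 30 proliferation genes 9 were lower and none higher, with a median of -0.72. A UMI of the proliferation gene Mki67 was seen in 11.4% of gated and 35.9% of other CD3+ cells in controls, against 8.48% and 8.84% in treated samples. B cells held one in 11.5% and 1.80%. Of the other CD3+ cells, 94.9 to 99.5% in controls and 32.1 to 60.0% in treated samples also held at least 2 UMIs from the marker lists of other cell types. Whether RNA of other cells adds to the Mki67 shares was not tested. The interaction described last was more positive for 6 of the 30 genes and more negative for none, with a median of 1.03. Il2ra averaged 41 and 48.2 CPM in gated cells and 30.4 and 135 CPM in the other CD3+ cells, and it was lower in 4 of 7 samples, with a log2 difference of -1.50 (adjusted p = 6.66e-05). Whether Il2ra UMIs of treated samples come from the IL-2/CD25 plasmid was not tested, here or below. Of 23 genes of the interleukin 2 and STAT5 response, 1, Il2rb, was higher and 4 lower.

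Much of this depended on which CD3+ cells stood for comparison. Against only those that, like the gated cells, held no UMI of Cd8b1, Zbtb16 or Foxp3, 46 genes were higher and 399 lower, and Klrb1c, Klre1, Klrd1, Ncr1, Tyrobp, Eomes, Tbx21, Ifng, Il2rb, Fasl, Xcl1 and Il2ra lost the call, while Cd7, Cd160, Klrc1, Klrc2, Cd244a, Ahr, Lilr4b, Tnfsf10, Areg, Tnfrsf4, Il10, Il4, Ctla4, Icos, Cd5, Cd6 and Themis kept it. With the stricter receptor gate above, 17 genes were higher and 148 lower, and Cd7, Cd160, Klrc1, Klrc2 and Lilr4b kept their calls, while Cd244a (0.84), Ahr (0.86), Areg and Il4 lost theirs and Il2rb (-0.13) and Tyrobp (-0.33) turned direction.

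**Figure D4:**
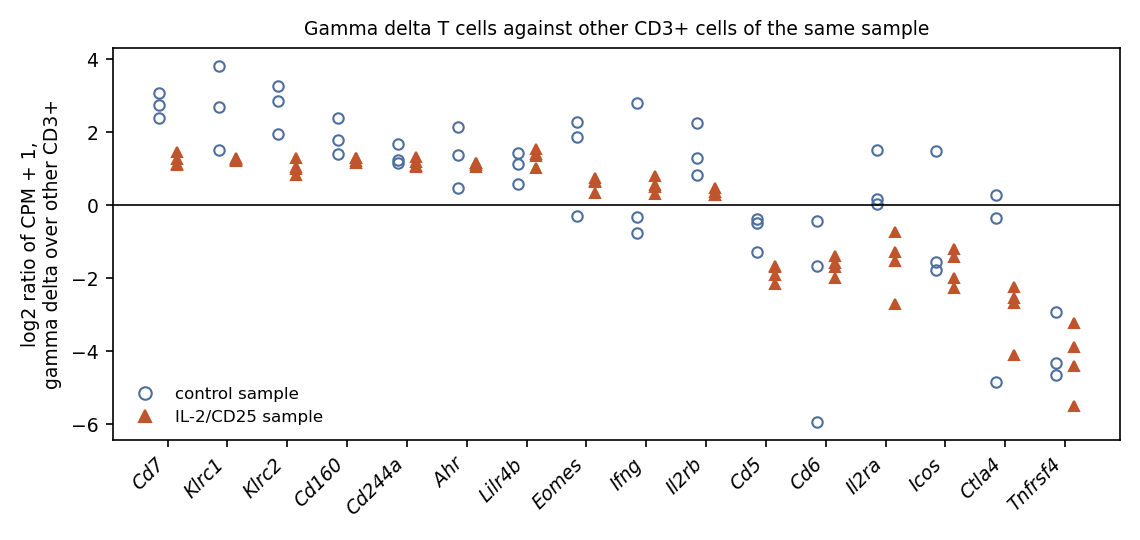
Log2 ratio of CPM + 1 in gated gamma delta T cells over the other CD3+ cells of the same sample, 1 point per sample (circles control, triangles IL-2/CD25), with 0 as no difference. Cd7, Klrc1, Klrc2, Cd160, Cd244a and Ahr lie above 0 in every sample, Cd5, Cd6 and Tnfrsf4 below it in every sample, and Ifng and Il2ra on both sides.

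The gated cells were also set against Ncr1+ barcodes without Cd3, an added comparison chosen after seeing the data. Out of 12013 genes in the test, 17.8% passed, with 824 higher in gated cells (6.86%) and 1316 lower (11.0%), and with a median of -0.05. Il7r averaged 715 and 396 CPM in gated control and treated cells against 44.5 and 90.3 CPM and was higher by 2.66 (adjusted p = 8.23e-06). Tcf7 averaged 287 and 342 CPM against 45.4 and 52.9 CPM and was higher by 2.57 (adjusted p = 7.36e-09). Cxcr6, a chemokine receptor of liver lymphocytes, was higher by 2.80 (adjusted p = 2.13e-11), Cd28, a costimulatory receptor, by 1.55 (adjusted p = 9.23e-07) and Il2ra by 2.08 (adjusted p = 2.50e-06). Of 12 receptor signalling genes 9 were higher and none lower, with a median of 1.03.

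Some killing genes were lower than in those barcodes. Of 15 cytotoxic genes 5 were lower, 2 (Gzmm and Tnfsf10) were higher and 8 did not pass, with a median of -0.41. The pore-forming perforin gene Prf1 was lower by -2.61 (adjusted p = 6.11e-08), Gzma by -2.53 (adjusted p = 3.42e-05) and Tyrobp by -1.06 (adjusted p = 7.86e-04). Klra4 and Klra8 were lower by -2.80 (adjusted p = 9.02e-07) and -2.53 (adjusted p = 1.43e-06). Of 24 NK receptor genes 2 were higher and 13 lower, Ncr1 among the latter because it chose the comparison barcodes. Of 16 genes of the interferon gamma type 5 were higher, 4 were lower and 7 did not pass, with a median of -0.12. Eomes was lower by -0.81 (adjusted p = 0.0226) and Tbx21 by -0.60 (adjusted p = 0.0138), and both calls were lost without each treated sample in turn (-0.81 to -0.59 and -0.52 to -0.45). Without treated 1 the count of genes called was 1407 and without treated 3 it was 1374, against 2140 with all samples.

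Between the groups, the gated gamma delta T cells of treated livers held more Gzma, Prf1, Ccl4, Itga1 and Ncr1 and less Fos, Fosb, Jun, Tnf and Il7r. Out of 8790 genes in the test, 9.81% passed at an adjusted p under 0.05, with 373 higher in treated samples (4.24%) and 489 lower (5.56%). The median log2 difference of all genes was 0.12. In 31.0% of genes tested the groups did not overlap, so that this alone sets no gene apart. With library sizes alone as the scaling, 519 were higher and 433 lower, with a median of 0.21, and with DESeq2 282 and 643. With cells gated after thinning to 2000 UMIs, 171 were higher and 30 lower. This setting was added after seeing the data and lowered the minimum from 10 to 5 cells per sample. It left 9, 6 and 6 control cells, and of 56 called genes named here that were fitted in it, 27 lost their call. The control sums come from 18, 13 and 13 cells, and leaving out control 1 left 356 genes called in place of 862.

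Granule proteins were the first group. Gzma was at 628, 82.4 and 71.5 CPM in controls and at 3592, 1235, 1978 and 4102 CPM in treated samples. Each treated value lay above each control value, and the log2 difference was 3.11 (SE 0.506, adjusted p = 5.84e-04), or 5.09 without control 1. Prf1 was at 46.5, 64.1 and 53.6 CPM and at 298, 193, 214 and 279 CPM, a log2 difference of 2.08 (SE 0.349, adjusted p = 7.25e-04), which lost its call with cells holding Ncr1 left out (1.39) and with free RNA subtracted (1.25). Gzmb rose by 1.35 (adjusted p = 0.0479), a call lost without control 1 (1.27), control 3 (1.08), treated 1 (1.09) or treated 4 (1.18), while without control 2 it was 2.06. Nkg7, a granule membrane protein, rose by 0.82 (adjusted p = 0.0105), a call lost without control 1 (0.74), treated 1 (0.71) or treated 4 (0.65). Of 14 cytotoxic genes 4 were higher and 1, Lamp1, lower, with a median of 0.73.

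Among 12 genes of chemokines and their receptors, 8 rose. Ccl4, an inflammatory chemokine, was at 85.3, 82.4 and 0 CPM in controls and at 973, 798, 858 and 729.8 CPM in treated samples. The groups lay far apart, with a log2 difference of 3.55 (SE 0.323, adjusted p = 2.90e-06). Ccl5, another inflammatory chemokine, was at 4777, 4952 and 7898 CPM and at 12579, 9043, 9621 and 13285 CPM, a log2 difference of 0.88 (SE 0.177, adjusted p = 0.00335). Xcl1, which draws cross-presenting dendritic cells, rose by 1.13 (SE 0.203, adjusted p = 0.00124), a call lost with cells holding Ncr1 left out (0.80). None of the 12 was lower, and the list's median was 1.38.

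Residency genes moved with them. Itga1 (CD49a), an integrin of liver-resident lymphocytes, was at 69.8, 0 and 53.6 CPM in controls and at 276, 294, 328 and 307 CPM in treated samples, with no overlap and a log2 difference of 2.78 (SE 0.373, adjusted p = 9.88e-05). Rgs1, a brake on chemokine receptor signals, was at 287, 412 and 357 CPM and at 960.4, 910.2, 977 and 803 CPM, a log2 difference of 1.29 (adjusted p = 1.97e-04). Cxcr6 was at 7.75, 73.2 and 17.9 CPM and at 137, 272, 281 and 162 CPM, a log2 difference of 2.52 (adjusted p = 0.00621) that was 4.23 without control 2 and lost its call without control 1 (1.91). Cxcr3, the receptor of interferon-induced chemokines, rose by 1.68 (adjusted p = 0.00271), and it too lost its call without control 1 (1.37). Runx3, a transcription factor of cytotoxic and tissue lymphocytes, rose by 0.91 (adjusted p = 0.00421). Of 13 residency genes 7 were higher and 1, Itgae, lower, with a median of 0.92.

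NK receptors and interferon gamma genes rose in part. Ncr1 was at 54.3, 64.1 and 107 CPM and at 228, 202, 208 and 317 CPM, without overlap, with a log2 difference of 1.71 (SE 0.330, adjusted p = 0.00223). Klrc2 rose by 1.31 (adjusted p = 3.77e-04), Klre1 by 1.28 (adjusted p = 3.80e-04) and Klrk1 (NKG2D), which sees stress ligands on tumour cells, by 1.18 (adjusted p = 0.00529). Without control 1 the value of Klrk1 was 0.79. Klra3, a Ly49 gene with close copies, rose by 3.35 (adjusted p = 0.0184), a call lost without control 1 (2.59) or control 3 (3.05), and was 9.12 without control 2. Of 23 NK receptor genes 7 were higher and 1 lower, with a median of 0.62. Of 16 interferon gamma type genes 10 were higher and none lower, with a median of 0.86.

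Ifng itself overlapped between the groups. Its log2 difference was 1.56 (SE 0.421, adjusted p = 0.0237), with control 3 at 161 CPM and treated 4 at 125 CPM, and the call was lost without control 1 (1.00), control 2 (1.40), treated 1 (1.43), treated 2 (1.45) or treated 3 (1.49), and without control 3 the value was 2.58. Tbx21 rose by 1.16 (adjusted p = 0.0232), a call lost without control 1 (0.94), control 3 (1.05) or treated 2 (1.06), and was 1.76 without control 2. Cd27, a costimulatory receptor of interferon gamma type gamma delta T cells in mice, rose by 1.17 (adjusted p = 0.00292), a call lost without control 1 (1.02). Eomes was at 132, 82.4 and 161 CPM and at 271, 153, 191 and 242 CPM, and its difference of 0.76 did not pass (adjusted p = 0.144).

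The chains of the interleukin 2 receptor bear on the plasmid. Il2rb was at 496, 778 and 589.6 CPM in controls and at 1235, 1024, 1217 and 1267 CPM in treated samples, with no overlap and a log2 difference of 0.84 (SE 0.187, adjusted p = 0.00705), a call lost without control 1 (0.73). Il2rg, the common gamma chain, rose by 0.84 (adjusted p = 0.0152), a call lost without control 2 (0.79). Il2ra was at 23.3, 64.1 and 35.7 CPM and at 56.5, 66.8, 48.6 and 21 CPM, so that the groups overlapped, and its difference of 0.11 did not pass (adjusted p = 0.947). The STAT5 target Pim1, a survival kinase, rose by 1.05 (adjusted p = 0.00248), while the STAT5 targets Cish and Socs1, which dampen cytokine signals, stood at -0.13 (adjusted p = 0.827) and -0.28 (adjusted p = 0.689). The survival gene Bcl2 was at 713, 1135 and 608 CPM and at 541, 409.8, 410.5 and 476 CPM, lower in every treated sample by a log2 difference of -0.96 (adjusted p = 0.00604) that without control 2 was -0.56 and no longer called. Of 20 genes of the interleukin 2 and STAT5 response 4 were higher and 3 lower, with a median of -0.13.

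Among T cell genes, Cd28 was at 69.8, 128 and 0 CPM and at 411, 299, 412 and 286 CPM, with no overlap and a log2 difference of 2.08 (adjusted p = 0.00124). Satb1 and Klf3, transcription factors of resting T cells, rose by 1.20 (adjusted p = 0.00119) and 1.30 (adjusted p = 0.00134). Art2b, a surface ADP-ribosyltransferase of T cells, was at 0, 9.15 and 0 CPM and at 52.2, 74.8, 87.9 and 71.7 CPM, from 1 or no UMI in each control, and its fitted difference of 4.22 (adjusted p = 0.00219) was 9.02 without control 2. Dtx1, a regulator of Notch signalling, was at 15.5, 9.15 and 17.9 CPM and at 106, 134, 119 and 125 CPM, a log2 difference of 3.04 (adjusted p = 1.69e-04), and Dusp5, a phosphatase of ERK kinases, rose by 2.49 (adjusted p = 7.93e-04). Irf1, a transcription factor of the interferon response, rose by 1.42 (adjusted p = 0.00222). Il7r was at 504, 622 and 1018 CPM and at 377, 478, 406 and 322 CPM, lower in each treated sample, with a log2 difference of -0.86 (SE 0.192, adjusted p = 0.00731). Its call was lost without control 3 (-0.61) and with cells holding Ncr1 left out (-0.41).

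Of 16 stress and immediate early genes 1 was higher, 5 were lower and 10 did not pass, with a median of -0.18. Fosb was at 829.7, 1071 and 536 CPM and at 255, 271, 327 and 199 CPM, a log2 difference of -1.78 (adjusted p = 3.72e-05), and Jun at 1318, 1190.0 and 947 CPM and at 513, 493, 479 and 431 CPM, a difference of -1.38 (adjusted p = 3.68e-05). Fos fell by 1.25 (adjusted p = 6.01e-04) and Egr1 by 1.77 (adjusted p = 0.00208), the latter at -0.95 and not called without control 2. The groups did not overlap for any of the 4. Junb went up, by 1.60 (adjusted p = 0.00208). Also higher were Nr4a2 and Nr4a3, early response genes of the checkpoint list, by 1.20 (adjusted p = 0.032) and 2.48 (adjusted p = 0.0287). The call of Nr4a2 was lost without control 1 (1.43), control 2 (1.44), control 3 (0.96), treated 1 (0.92) or treated 3 (1.14) and with free RNA subtracted (1.11). Nr4a3 was at 7.75, 18.3 and 35.7 CPM and at 136, 109.8, 111 and 59.5 CPM, and its call was lost without control 1 (2.04), control 2 (2.62), control 3 (2.91) or treated 3 (2.43) and with free RNA subtracted (2.34). These genes also respond to tissue dissociation, whose part here was not tested.

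Tnf was at 54.3, 64.1 and 107 CPM and at 6.44, 13.5, 11.4 and 16.3 CPM, a log2 difference of -2.59 (SE 0.473, adjusted p = 0.00142) without overlap. The genes that fell most are known from neutrophils and macrophages. Chil3, a macrophage and neutrophil lectin, was at 395, 4339 and 161 CPM in gated control cells and at 9.30, 7.16, 3.10 and 4.66 CPM in gated treated cells, a log2 difference of -8.20 (adjusted p = 3.95e-06). The chemokine Ccl6 was at 768, 1428 and 53.6 CPM and at 12.2, 12.7, 24.8 and 12.8 CPM, a difference of -5.90 (adjusted p = 5.89e-07). The complement gene C1qb of macrophages differed by -5.76 (adjusted p = 7.54e-05), Tgfbi, a monocyte-derived matrix protein, by -4.84 (adjusted p = 6.32e-06) and Lcn2, a neutrophil granule protein, by -4.68 (adjusted p = 4.18e-05). Also among the 12 lowest were F10, Wfdc21, Ear2, Naaa, Tifab and Clec4n, at -5.35 to -4.23, and the cell division gene Ube2c at -4.86, of which Wfdc21 lost its call without control 2 (-2.45), Ube2c without control 3 (-3.44), and Tifab (-3.29) and Clec4n (-3.10) without control 1. The neutrophil list fell with 3 of 3 genes and the monocyte and macrophage list with 3 of 3, and their summed levels are given above with those of the tumour cell markers. With free RNA subtracted, Tnf (-2.81), Fos (-1.52), Fosb (-2.03), Jun (-1.44), Egr1 (-2.21) and Tgfbi (-7.67) kept their calls, while Chil3, Ccl6, C1qb, Lcn2, Wfdc21, Ear2, Naaa and Ube2c could not be fitted. Tnf, Fos, Fosb, Jun, Egr1, Chil3, Ccl6, C1qb, Tgfbi and Lcn2 also kept their calls without called doublets. That setting took out only 0, 1 and 1 gated control cells, so it cannot decide whether mixed barcodes play a part. Leaving out cells with markers of other cell types left too few control cells for a fit.

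**Figure D5:**
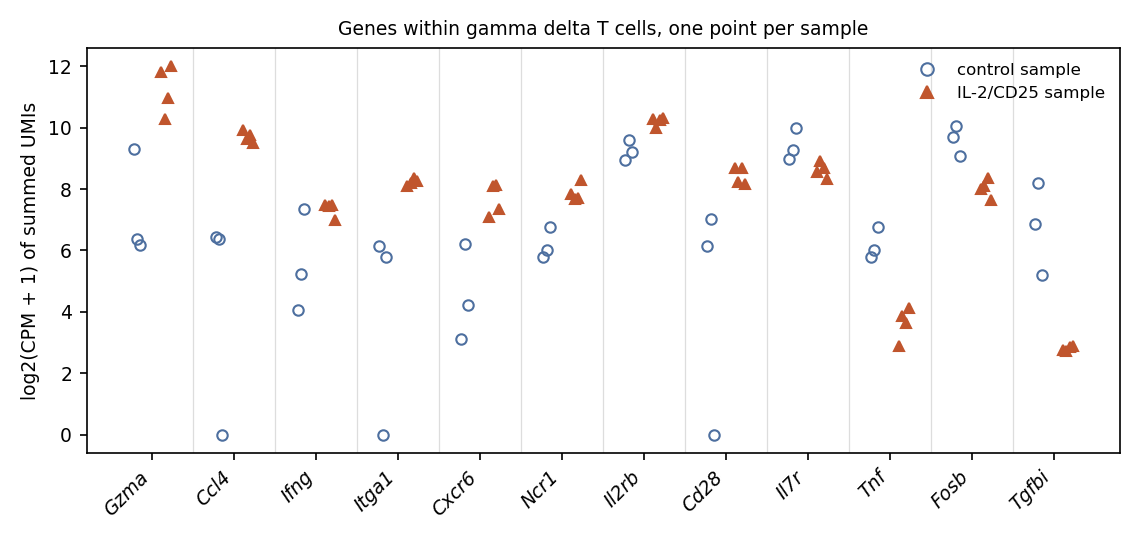
Level as log2(CPM + 1) of genes in gated gamma delta T cells, 1 point per sample for 3 control and 4 IL-2/CD25 samples. Gzma, Ccl4, Itga1, Cxcr6, Ncr1, Il2rb and Cd28 are higher in every treated sample, Il7r, Tnf, Fosb and Tgfbi lower in every treated sample, and Ifng overlaps.

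Last, the difference between the groups in gated cells was set against that in the other CD3+ cells by an interaction term. Out of 12106 genes in the test, 5.36% passed, 475 with a more positive difference in gated cells (3.92%) and 174 with a more negative one (1.44%). The median was 0.18, and with the DESeq2 style of size factors (RLE) the split was 314 and 239, with a median of 0.07. Leaving out control 1 left 167 genes and leaving out control 3 left 430 in place of 649.

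Gzma rose from means of 261 to 2727 CPM in gated cells and from 970 to 1730 CPM in the other CD3+ cells, an interaction of 2.71 on the log2 scale (adjusted p = 1.30e-05), which was 4.36 without control 1. Ccl4 rose from 55.9 to 840 CPM and from 127 to 539 CPM, an interaction of 1.80 (adjusted p = 0.00531) that was 1.22 and no longer called without control 2. Il7r moved in opposite directions, from 715 to 396 CPM in gated cells and from 283 to 673 CPM in the others, an interaction of -1.89 (adjusted p = 1.75e-04). Bcl2 went from 819 to 459 CPM in gated cells and from 271 to 450 CPM in the others, an interaction of -1.38 (adjusted p = 2.73e-06), which kept its call whichever sample was left out.

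NK receptor genes with an interaction had the smaller difference in gated cells, where their control level was higher. Klrb1c went from 347 to 501 CPM in gated cells and from 58.7 to 305 CPM in the others, an interaction of -1.59 (adjusted p = 0.00143). Klrc2 went from 300 to 814 CPM and from 53.8 to 396 CPM, an interaction of -1.28 (adjusted p = 0.00143), not called without control 1 (-1.06). Il2rb, at 621 and 1186 CPM against 255 and 930 CPM, had an interaction of -0.73 (adjusted p = 0.0215), not called without control 1 (-0.69) or without control 3 (-0.49). Of 23 NK receptor genes 5 had a more negative difference and none a more positive one, with a median of -0.99.

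Scart1, a scavenger receptor described on interleukin 17 type gamma delta T cells in mice, averaged 58.4 CPM in gated control cells and 14.6 CPM in gated treated cells, against 1.07 and 8.86 CPM in the others, from 15 and 75 UMIs in gated cells. Its interaction was -4.43 (adjusted p = 0.00254). Myc, also carried by the injected plasmid, averaged 137 and 65.8 CPM in gated cells against 961 and 53.3 CPM in the others, an interaction of 3.43 (adjusted p = 4.69e-09), and the tumour cell markers of the other CD3+ cells summed to 709 to 3622 CPM in controls and 4.1 to 261 CPM in treated samples.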

How the data were processed

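The deposited files are, per the file headers, Cell Ranger matrices of UMI counts per gene and barcode, unnormalised, for 7 samples (55357 features) from 10x 3′ v3.1 libraries. Cell Ranger 7.0.0 and bcl2fastq 5.0.1 are listed in the submitters' processing notes. Which genome and annotation were used upstream is not given in the sources used here. The printed coordinates are those of GRCm38 with GENCODE M21, joined by Ensembl identifier. Samples were grouped by the labels, which give all of them the same batch.

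The gated cells and the gene lists were chosen with earlier results of these data known, and the gate genes carry no test. UMI counts were summed per sample over gated cells, other CD3+ cells and Ncr1+ barcodes without Cd3, and tested with edgeR 4.0.16 (quasi-likelihood, TMM, filterByExpr, limma 3.58.1, R 4.3.3) over all genes passing the filter, with Benjamini-Hochberg adjustment at 0.05. Comparisons of cell classes had the sample as a block. CPM were computed from the summed UMIs and the sample's total. Shares were tested by exact two-sided permutation over 35 splits and adjusted over the 2 shares. Intervals cover counting error only. DESeq2 1.42.0 was an alternative. Doublets were called by simulated pairs of cells (scanpy 1.11.5, Python 3.11.15) and kept unless stated. The genes named were list members and up to 12 per direction (6 for the interaction) with an adjusted p under 0.05 and at least 50 CPM in the higher group. Between the groups and for the interaction, no overlap of the groups was required. Against the other CD3+ cells, the same direction in every sample was required instead. Genes were ranked by log2 difference, without ribosomal, mitochondrial and immunoglobulin genes and genes over 5 times higher in barcodes without Cd3. Tested on simulated data, the fits found 69% of genes changed 4-fold and 21% of genes changed 2-fold between groups, 98% and 81% against the other CD3+ cells and 51% and 20% for the interaction, where 12 of 83 calls were false. Results that need some withheld genes are not reported here.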

Additional observations from a re-analysis of the deposited data

Results flagged for a closer look

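Of 80 values tested for a sample apart within the 4 treated samples, 3 stood out, where chance alone marks about 1 in 20 groups. Mir6236 was lowest in treated 4, at 465 CPM against 726 to 745 CPM in the others. Ifng was also lowest in treated 4, at 125 CPM against 175 to 178 CPM. Ccl6 was highest in treated 3, at 24.8 CPM against 12.2 to 12.8 CPM.

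The difference between the groups was itself different in gated cells and in the other CD3+ cells for 21 named genes, by the interaction in edgeR on the log2 scale. Beside those described above (Gzma 2.71, Ccl4 1.80, Myc 3.43, Il7r -1.89, Bcl2 -1.38, Klrb1c -1.59, Klrc2 -1.28, Il2rb -0.73 and Scart1 -4.43), Tnf had a value of -2.40, from 75.2 to 11.9 CPM in gated cells and from 15.1 to 15.6 CPM in the others. Klrc1 stood at -0.99, and Il17a, from 7 cells, at -6.83. More positive in gated cells were Gzmk at 4.06, a granzyme that went from 68.4 to 9.74 CPM in the other CD3+ cells and from 11.9 to 13.5 CPM in gated cells, Mfge8 at 3.18 and Ercc1, Cfap298 and Pes1 at 3.28, 3.18 and 3.11. More negative were Tifab at -2.72, Cnrip1 at -2.68, Klra6 at -2.42 and Ramp1 at -2.42. Without control 1 the calls of Gzmk, Ercc1, Cfap298, Pes1, Tifab, Cnrip1, Klra6, Ramp1, Tnf, Klrc1, Klrc2 and Il2rb were lost. Without control 2 Ccl4 was lost, and without control 3 Klra6 (-0.60), Il17a, Klrc1 and Il2rb were.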

How the results depend on the processing

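The share difference of 2.93 points of kept barcodes and 4.75 points of CD3+ barcodes was 2.75 and 4.22 without called doublets (adjusted exact p = 0.0571 for both), 1.66 and 1.58 without cells holding Ncr1, 0.154 and 0.108 with the stricter receptor gate, and 3.26 and -1.21 without cells holding markers of other cell types, where the controls kept 1, 0 and 2 gated cells. Leaving out 1 sample gave 2.70 to 3.22 and 4.12 to 5.76, where the design cannot reach 0.05. Genes called between the groups numbered 1312 with no filter on low counts, 309 with sums thinned to equal size, 419 with free RNA subtracted, 201 with cells gated after thinning to 2000 UMIs (added after seeing the data) and 356 to 819 without 1 sample. With the replicate number as a block there were 696. Deviations of same-numbered samples had correlations of -0.05, -0.03 and -0.03. The control sums rest on few cells, so these values cannot show whether the numbers pair the samples. Against the other CD3+ cells 1031 genes were called, and the counts were 548 with DESeq2, 2065 with no filter and 445 against cells without Cd8b1, Zbtb16 and Foxp3. They were 165 with the stricter gate, 601 after thinning, 1560 in treated samples alone and 548 to 1034 without 1 sample. Without the sample as a block, which ignores that both sums come from 1 library, 45 were called. The interaction gave 36 with thinned sums and 167 to 923 without 1 sample, and the comparison with Ncr1+ barcodes 1374 to 2408. Thinned to 2000 UMIs, shares with a UMI were 26.1% for Ncr1 and 20.4% for Ifng in treated samples, 38.5% and 56.3% for Klrb1c and 2.78% and 10.4% for Trac in controls and treated samples. Against the other CD3+ cells 9 values changed sign: Serpina3g -0.73, Il2rb -0.13 and Tyrobp -0.33 with the stricter gate, Crip2 0.64 and Csf1 0.13 after thinning, and Il2ra 0.27, Klrg1 0.26, Lef1 0.42 and S1pr1 0.22 in controls alone. The causes were not tested. Of 1096 recomputed values of 69 genes between the groups, 141 lost the call and 0 changed sign. With the stricter receptor gate, or without cells holding other markers, too few control cells were left for that comparison. The same held for cells gated after thinning at the planned minimum of 10 cells per sample, so the 201 above took a minimum of 5. Depth limits the controls most, whose sums rest on 44 cells.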
